A study of Drosophila melanogaster with 2 samples.

Results

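The inner layers of the fly eggshell were followed through 9 genes: the vitelline membrane genes Vm26Aa, Vm26Ab, Vm26Ac, Vm32E and Vm34Ca, together with Vml, psd, dec-1 and ndl. They were chosen by name in the deposited annotation, and all 9 had values among the 19391 loci of the expression table. The study measured polyadenylated RNA of whole Drosophila melanogaster adults, 3 to 5 days old, in 1 library of females and 1 library of males. Each library was a pool of 200 ng of RNA from each of 192 lines of the Drosophila Genetic Reference Panel (DGRP), a collection of inbred fly stocks from a wild population. Both sexes were grown on the same medium at the same temperature and light cycle, per the labels. With 1 library per sex there is no replicate error and no p-value for any difference, and pooling removed all information on single lines.

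The eggshell is made by the follicle cells, the somatic epithelium around each oocyte. They secrete the vitelline membrane proteins before the chorion proteins, so the vitelline membrane forms the innermost layer and the chorion the outer layers. The vitelline membrane proteins share a conserved hydrophobic domain and become cross-linked through disulfide bonds and later by peroxidase. The space beneath this layer also holds the proteases and ligands that set the dorsal-ventral and terminal axes of the embryo.

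All 9 genes were higher in the female library, and they were at least 4-fold higher in each case. The sexes are compared as log2((female FPKM + 1)/(male FPKM + 1)), where FPKM, as the authors deposited it, counts fragments relative to transcript length and library size. The median log2 ratio of the 9 genes was 4.01, with a range from 2.48 for ndl to 4.70 for Vml, while the median over the 14108 loci tested was −0.58. A locus was tested when it had at least 1 FPKM in 1 library, and all 9 genes passed this filter, of which Vm26Ac and ndl did so through the female library alone. Past 2-fold toward females were 9 of 9 genes, against 21.5% of all loci tested, and none was past 2-fold toward males, against 40.7%. Scaling moved this background. Loci past 2-fold toward females numbered 3034 on the values as deposited, 4260 with both libraries set to the same sum and 1282 with ribosomal protein genes set equal. As a share of all calls in either direction, which is not a share of loci tested, these were 34.6%, 50.3% and 12.7%. All 9 genes were past 2-fold under both scalings. At 4-fold the count was again 9 of 9, against 7.6% of loci. At 8-fold it was 8 of 9, all but ndl, against 2.5%. At 16-fold it was 5 of 9, namely Vml, Vm26Ab, Vm34Ca, dec-1 and Vm26Aa, against 0.744%. The added 1 FPKM lowers the ratios of low genes and so decides which genes pass these folds. Without it the female level was 25.4 times the male level for Vm26Ac, 17.9 times for psd and 13.7 times for ndl. In whole flies, fewer cells of a type and less RNA per cell cannot be told apart, and follicle cells are a tissue that males lack.

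Most of these genes are short and have no intron. Of the 9 genes, 6 had transcripts of a single exon, as did 15.6% of 13888 protein-coding genes. The longest transcripts of the 5 vitelline membrane genes ran from 437 nt in Vm32E to 745 nt in Vm26Aa, against a median of 1681.5 nt for protein-coding genes. Vml had 1 exon of 1832 nt, and psd had 2 transcripts with an unspliced form of 1236 nt and a spliced form of 1543 nt. At the other end, ndl had 15 exons and a coding length of 7851 nt. The annotation held 6 transcripts of dec-1, with coding lengths from 2853 to 4773 nt. The FPKM table has 1 value per gene, so the dec-1 forms, which are cut into different eggshell proteins, could not be separated. None of the 9 genes had a new isoform in the deposited annotation. FPKM of transcripts as short as those of Vm32E (437 nt) and Vm34Ca (476 nt) depends on how the effective length was computed, which is not given in the sources used here, so levels between short and long genes are to be read with that in mind.

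**Figure D1:**
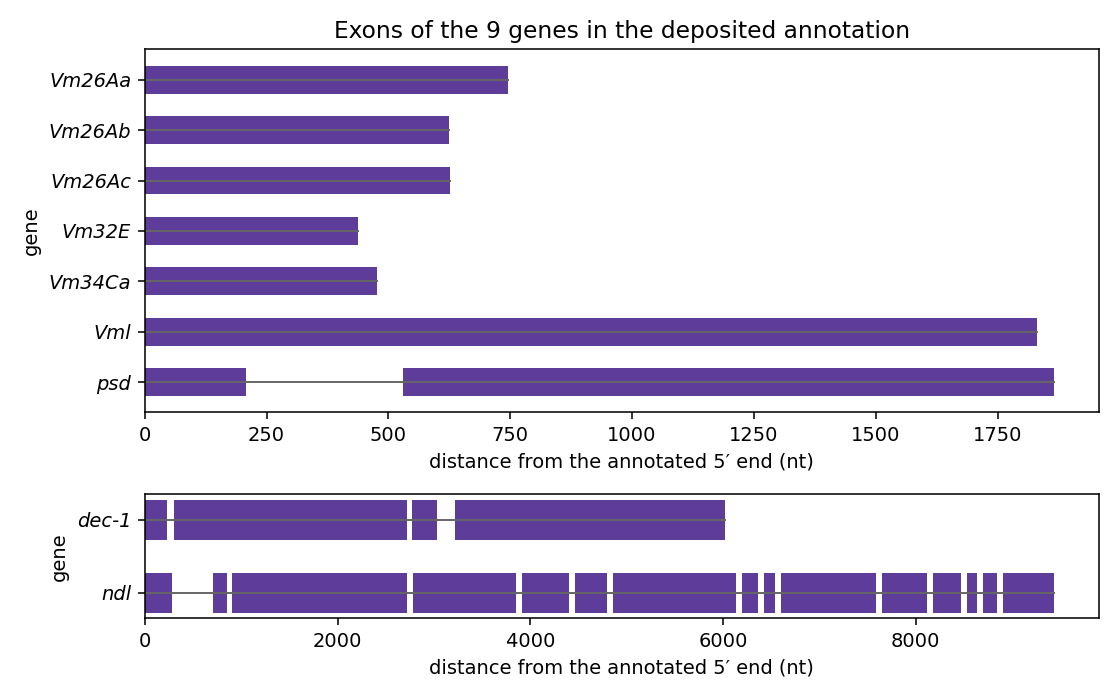
Exons of the 9 genes, merged over all transcripts, as boxes along the distance in nt from the annotated 5′ end of each gene, with introns as lines; the lower panel has a longer axis. The 5 vitelline membrane genes and Vml are each 1 block, while ndl has 15 blocks over 9429 nt.

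The vitelline membrane genes proper spanned a wide range of levels. Vm34Ca, a structural vitelline membrane gene, was the highest of the 9, with 876 FPKM in the female library and 45.7 FPKM in the male library. Its log2 ratio was 4.23, and it ranked at position 123 of all loci in the female library. Vm26Aa, which encodes a major vitelline membrane protein, had 675 FPKM in the female library and 41.1 FPKM in the male library, a log2 ratio of 4.01. Its cluster neighbour Vm26Ab, which encodes another major protein of this layer, had 418 FPKM in females and 18.0 FPKM in males, a log2 ratio of 4.46. These 3 genes held 82.2% of the FPKM summed over the 9 genes in females and 83.0% in males.

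The remaining members of the family were lower. Vm32E, whose protein is also found in the endochorion after its secretion, had 120 FPKM in females and 8.04 FPKM in males, a log2 ratio of 3.74. Vm26Ac was the lowest of the family, with 21.3 FPKM in females and 0.839 FPKM in males. Its log2 ratio of 3.60 is pulled down by the added 1 FPKM, since the male value is below 1. Without it the female level was 25.4 times the male level, more than the 16.4 times of Vm26Aa and the 23.2 times of Vm26Ab. Within the family, levels in the female library thus differed by up to 41.1-fold, whereas the male level stayed between 3.93% and 6.71% of the female level.

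Vm26Ab, Vm26Ac, Vm26Aa and psd lie beside each other on arm 2L in a stretch of 7948 nt (5957004 to 5964951, build BDGP5 per the submitters' processing notes). Vm26Ab (5957004 to 5957628) is on the plus strand, and Vm26Ac (5958005 to 5958631), Vm26Aa (5959596 to 5960340) and psd (5963087 to 5964951) are on the minus strand. The gap between Vm26Ab and Vm26Ac is 376 nt, and no other annotated gene lies between the 4 genes. Despite this closeness the level of Vm26Aa was 31.7 times that of Vm26Ac in females and 49.0 times in males. Vm26Ab was 19.6 times as high as Vm26Ac in females and 21.5 times in males. Both male multiples divide by 0.839 FPKM for Vm26Ac, which is below 1 FPKM and has an unknown counting error. The gene psd (palisade), required for the even deposition of vitelline membrane material, had 25.0 FPKM in the female library and 1.40 FPKM in the male library, a log2 ratio of 3.44. Without the added 1 FPKM its female level was 17.9 times the male level, against 16.4 times for Vm26Aa. In both libraries Vm26Aa and Vm26Ab were thus far above Vm26Ac and psd, with all 4 log2 ratios between 3.44 and 4.46. Without the added 1 FPKM the 4 ratios lay between 4.04 (Vm26Aa) and 4.67 (Vm26Ac).

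Vml, dec-1 and ndl are larger genes with distinct roles. Vml encodes a vitelline membrane-like protein that is sulfated by the Pipe sulfotransferase in ventral follicle cells. It had 134 FPKM in the female library and 4.17 FPKM in the male library. Its log2 ratio of 4.70 was the highest of the 9, and 34 of the 14108 loci tested had a higher ratio. The gene dec-1 (defective chorion) encodes follicle cell proproteins that are cleaved during eggshell assembly. It had 119 FPKM in females and 6.43 FPKM in males, a log2 ratio of 4.01. Vml was 1.12 times as high as dec-1 in the female library and 0.649 times as high in the male library, so their order differed between the libraries.

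ndl encodes Nudel, a large modular serine protease secreted by follicle cells that acts in vitelline membrane cross-linking and at the start of the dorsal-ventral protease cascade. It was the lowest of the 9 genes in both libraries, with 7.69 FPKM in females and 0.561 FPKM in males. Its log2 ratio was 2.48 and 620 loci had a higher one. Without the added 1 FPKM the female level was 13.7 times the male level, the smallest multiple of the 9, against 32.1 times for Vml. Vm34Ca was 114 times as high as ndl in females and 81.4 times in males.

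**Figure D2:**
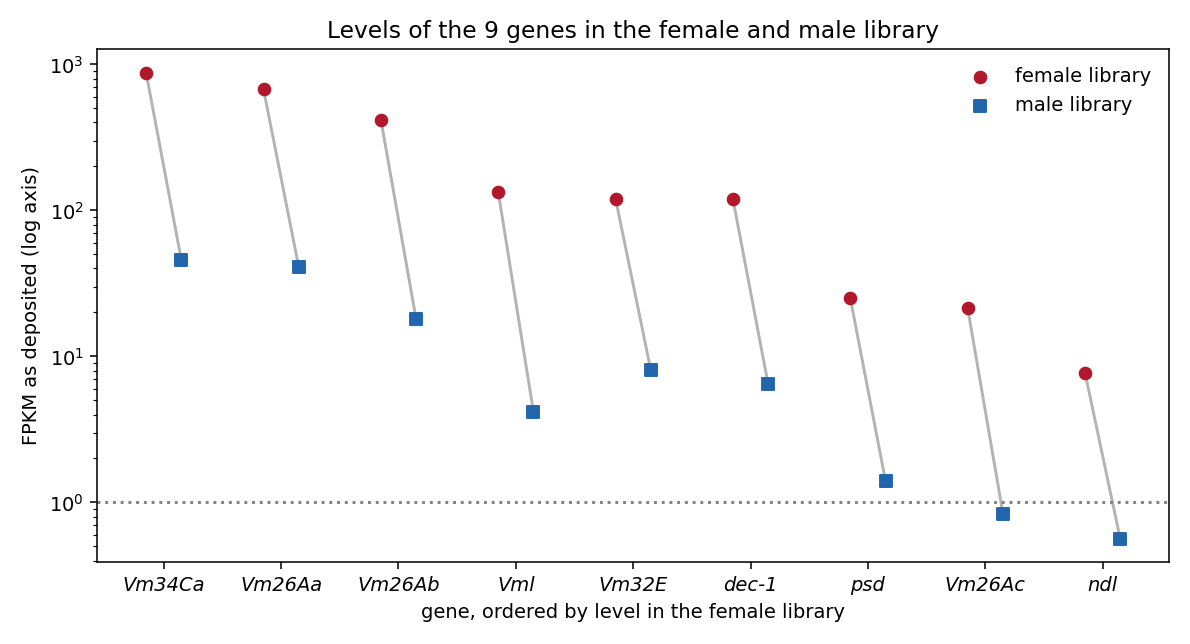
Deposited FPKM on a log axis for each of the 9 genes, with the female library as circles and the male library as squares, joined for each gene; the dotted line marks 1 FPKM. Levels run from 876 FPKM (Vm34Ca) to 7.69 FPKM (ndl) in females, every square is below its circle, and the squares of Vm26Ac and ndl are below 1 FPKM.

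The 9 genes kept much the same order in both libraries. From high to low the female order was Vm34Ca, Vm26Aa, Vm26Ab, Vml, Vm32E, dec-1, psd, Vm26Ac and ndl. In the male library Vm32E and dec-1 stood above Vml, and the other places were the same. Spearman's rho between the libraries was 0.95 over the 9 genes, against 0.67 over all loci; these are descriptions across genes, which are not replicates. Without replicates, neighbours in this order that lie close, such as Vm32E (120 FPKM) and dec-1 (119 FPKM) in females, cannot be told apart. Together the 9 genes made up 0.358% of all FPKM listed for females and 0.0133% of all FPKM listed for males.

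All 9 genes had at least 1 FPKM in the female library and 7 had it in the male library, while Vm26Ac and ndl were below it there. No gene was listed at 0 in either library. The male level was 3.12% of the female level for Vml, 3.93% for Vm26Ac and 4.31% for Vm26Ab. It was 5.22% for Vm34Ca, 5.40% for dec-1, 5.59% for psd and 6.09% for Vm26Aa. The highest were Vm32E with 6.71% and ndl with 7.30%. Their median was 5.40% on the values as deposited, 3.80% with both libraries set to the same sum and 10.6% with ribosomal protein genes set equal. The percentages differed by 2.34-fold between the genes, while the levels differed by 114-fold in the female library. Across the 9 genes the percentage had a Spearman's rho of −0.25 with the female level and of 0.12 with transcript length, a description over 9 points that share both libraries.

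The same percentage was taken over all loci, the 9 genes included, without matching other loci to them by level. The cutoffs below are values of the 9 genes, so all 9 are among the 7604 and the 272 loci by construction. Of 7604 loci with at least as much FPKM in females as ndl, 272 (3.58%) had a male level at or below 7.30% of the female one, and 104 (1.37%) had one below 3.12%. Very low percentages were rarer still, with 28 loci below 1%. In the reverse direction, of 9318 loci with at least the same FPKM in males, 1709 (18.3%) had a female level below 1% of the male one.

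**Figure D3:**
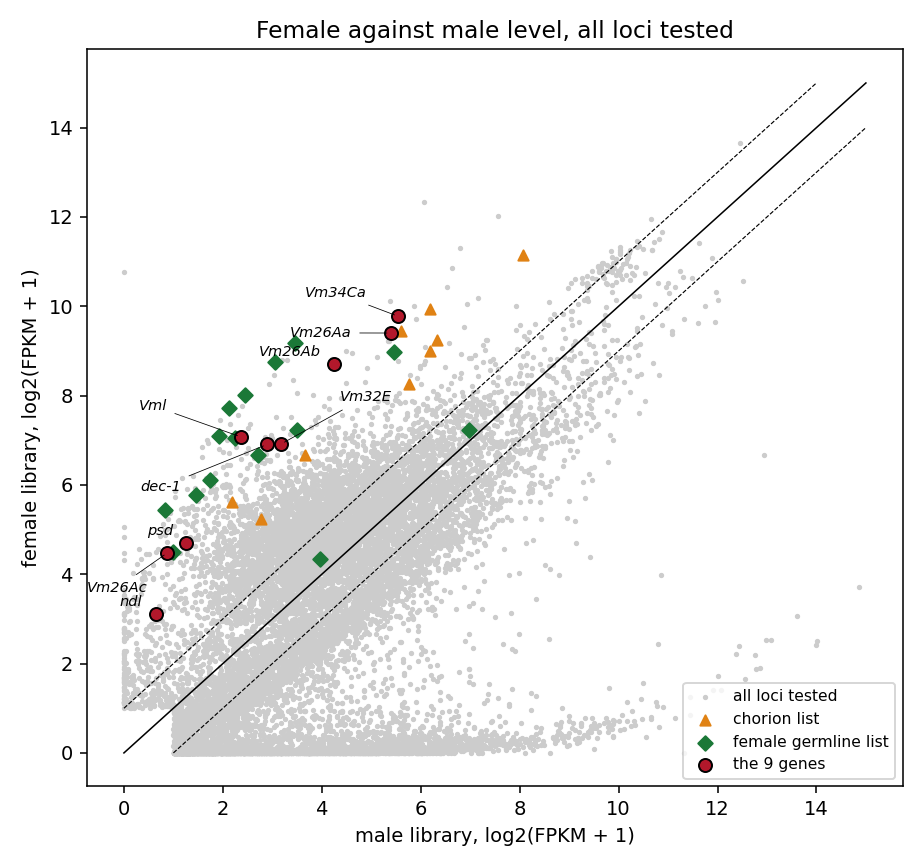
Levels of all tested loci, with log2(FPKM + 1) of the female library on the vertical and of the male library on the horizontal axis; the solid line marks equal levels, the dashed lines 2-fold differences on this scale, and the 9 genes (circles), chorion genes (triangles) and female germline genes (diamonds) are marked. The 9 genes lie well above the upper dashed line, from ndl at the low end to Vm34Ca at the high end.

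The male values were set beside those of other genes with known sites of expression. The chorion genes, which encode the outer eggshell and are amplified in follicle cells, were at least 2-fold higher in females in 9 of 9 cases, with log2 ratios from 2.47 (Cp7Fb) to 3.85 (Cp36) and a median of 3.00. Their male level was 6.80% (Cp36) to 17.3% (Cp16) of the female level, and 8 of 9 lay above the highest of the inner eggshell genes. Of these, Cp7Fa (7.31%) and Cp38 (7.37%) were barely above it. That highest value is the 7.30% of ndl, whose male level of 0.561 FPKM has an unknown counting error. With 1 library per sex this difference between the lists was not tested. Yp1, Yp2 and Yp3, which encode yolk proteins and are active in fat body and follicle cells, had 4.54%, 5.24% and 4.40%, all inside the range of the inner eggshell genes. The yolk receptor gene yl, expressed in the oocyte, had 443 FPKM in females and 8.86 FPKM in males, a lower percentage than any of the 9 genes.

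Of 15 female germline genes, 13 were at least 2-fold higher in females and none in males, and the median log2 ratio was 4.37. Among them 7 had a lower male percentage than any inner eggshell gene, including osk (log2 ratio 5.73, 1.72%), bcd (1.85%) and wisp (1.60%), which act in the oocyte and egg. The genes orb (log2 ratio 0.24, 84.5%) and grk (75.9%) stood at the other end. No gene of the yolk or female germline lists was at 0 in the male library. Summed levels were 8976 FPKM (yolk) and 2846 FPKM (germline) in females against 406 and 236 FPKM in males. Of the male germline sum, orb alone held 125 FPKM and BicC 43.1 FPKM, while the median of the list was 4.43 FPKM in males. The part of RNA from female tissue in the male values of the inner eggshell genes was not tested.

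**Figure D4:**
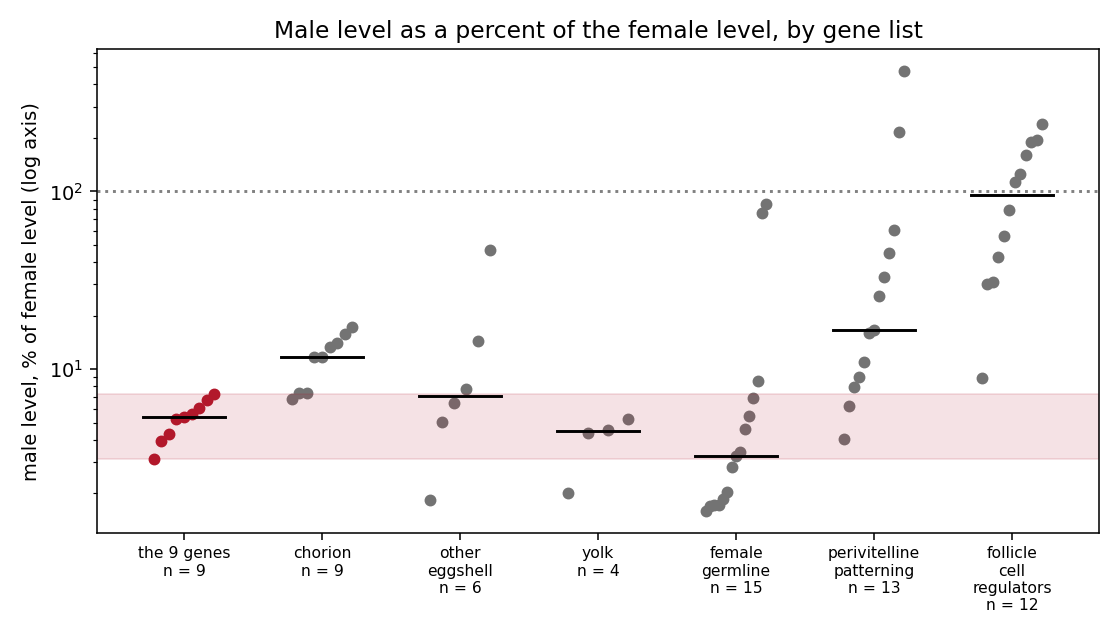
Male level as a percent of the female level on a log axis, 1 point per gene with at least 1 FPKM in 1 library, for the 9 genes and 6 other lists, with the median as a bar; the shaded band is the range of the 9 genes (3.12% to 7.30%) and the dotted line marks equal levels. Of the chorion genes 8 of 9 lie above the band, Cp7Fa and Cp38 only just, and 7 of 15 female germline genes lie below it.

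Markers of male tissues went the other way. All 12 testis and sperm genes and all 9 seminal fluid genes were past 2-fold toward males, with median log2 ratios of −7.87 and −8.74. The log2 ratios ran from −2.56 (aly) to −9.23 (Mst87F) in the testis list, from −6.09 (Acp29AB) to −10.60 (Acp70A) in the seminal fluid list and from −1.75 (kl-2) to −4.46 (ARY) among Y-linked genes. Female levels of the testis and seminal fluid genes had a median of 0.0714% and 0.0647% of the male ones. All 8 Y-linked genes found of 10 were higher in males, and 4 of them were listed at 0 in females. The labels of sex thus matched these genes. Of 2 spermathecal genes, Send1 had 19.3 FPKM in females and 0.264 FPKM in males, and Send2 had 1.85 and 0.366 FPKM in females and males.

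Other genes linked to the eggshell or to the follicle also stood higher in females. Of 7 such genes, 6 were tested and 5 were at least 2-fold higher in females, with a median log2 ratio of 3.50. The gene Fcp3C, a follicle cell protein gene, had 25.4 FPKM in females and 1.29 FPKM in males, close to the values of psd. The neighbouring genes yellow-g and yellow-g2, needed for a rigid eggshell, had 69.1 and 68.5 FPKM in females against 5.33 and 4.44 FPKM in males. Femcoat had 37.2 FPKM in females and 5.33 FPKM in males. The highest log2 ratio was that of Pxt (5.59), which encodes a cyclooxygenase-like enzyme required in follicle maturation, and the lowest that of Cad99C (0.90), a cadherin of follicle cell microvilli. The chorion peroxidase gene Pxd had 0.210 FPKM in females and 0.133 FPKM in males and was not tested.

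The genes that act with Nudel and the vitelline membrane in patterning the embryo were more varied. Of 14 genes listed, 13 were found, 9 were at least 2-fold higher in females and 2 in males, and the median log2 ratio was 1.88. With ribosomal protein genes set equal between the libraries, 7 were past 2-fold toward females, as were 1282 of all loci. The highest log2 ratio of this list was that of clos (closca), needed for vitelline membrane cross-linking and terminal signalling, with 59.6 FPKM in females and 2.41 FPKM in males (4.15). Its partner in that role, fs(1)N, had 45.2 FPKM in females and 4.95 FPKM in males, a log2 ratio of 2.96.

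The proteases downstream of Nudel had low to moderate levels. The gene gd had 5.85 FPKM in females and 0.365 FPKM in males, and snk had 8.04 and 0.723 FPKM in females and males, with log2 ratios of 2.33 and 2.39. The last protease of the cascade, ea, had 24.7 FPKM in females and 8.13 FPKM in males (1.49). The last steps of the pathway were higher than these proteases in both libraries. The substrate of Easter, spz, the ligand of Toll, had 54.7 FPKM in females and 14.1 FPKM in males (1.88), and the receptor gene Tl had 72.3 FPKM in females and 12.1 FPKM in males (2.49). For the terminal system, the receptor gene tor had 41.1 FPKM in females and 3.28 FPKM in males (3.30), and its ligand gene trk had 5.86 FPKM in females and 0.934 FPKM in males (1.83).

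The other genes of this list were under 2-fold or higher in males. The sulfotransferase gene pip, which acts on Vml protein, had 2.59 FPKM in females and 1.16 FPKM in males (0.73), and sll, a transporter of the sulfate donor, had 28.6 FPKM in females and 17.3 FPKM in males (0.69). Both were under 2-fold. The gene wbl, which Pipe needs in the secretory pathway, had 5.16 FPKM in females and 24.4 FPKM in males (−2.05). The terminal gene tsl, whose protein is held in the vitelline membrane, had 11.6 FPKM in females and 25.1 FPKM in males (−1.05). With both libraries set to the same sum, 1 gene of the list was past 2-fold toward males, as were 4209 of all loci.

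Regulators and markers of follicle cells that are also active elsewhere in the body gave a median log2 ratio of 0.08 over 12 genes. Of these, 4 were at least 2-fold higher in females and 8 differed by less. The highest was tj (traffic jam), a transcription factor of gonadal somatic cells, with 19.7 FPKM in females and 1.75 FPKM in males, a log2 ratio of 2.91. The ecdysone receptor genes EcR (1.58) and usp (1.68) and the repressor gene ttk (1.19) also passed 2-fold. The lowest was cv-2 (−0.77), and ct (−0.74), slbo (−0.71), mirr (−0.52), Fas3 (−0.31) and peb (−0.16) were also negative. Positive but under 2-fold were br (0.61) and pnt (0.31). With ribosomal protein genes set equal the median became −0.81, against −1.29 over all tested loci. Past 2-fold were then 1 gene toward females and 6 toward males, against 1282 and 8839 of all loci. With equal medians of loci at 1 FPKM in both libraries the list had 3 and 3, against 2001 and 7251 over all loci.

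The immediate surroundings of the 9 genes were mixed. The 3 nearest annotated loci on each side gave 36 distinct other loci, of which 31 were tested. At least 2-fold higher in females were 11 (35.5%), against 21.5% of all loci, and 15 (48.4%) were higher in males, against 40.7%. Their median log2 ratio was −0.31. On the psd side of the 26A cluster, CG13992 had 6.08 FPKM in females and 0.479 FPKM in males (2.26). The locus after it, Ucp4C, had 0.195 FPKM in females and 41.1 FPKM in males (−5.14). On the Vm26Ab side, CG13998 was at 0.71, CG13999 at −3.08 and CG9044 at −0.31.

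Around Vm34Ca (2L, 13411141 to 13411616), CG10859, CG16957, CG16848 and CG43850 had log2 ratios of −6.41, −5.51, −4.07 and −1.62, while CG7110 and CG16956 were at 2.24 and 1.71. Around Vm32E, CG31867 was at −5.15, ab at −2.12, Ca-beta at −1.20, CG6287 at 0.39 and CG4788 at 2.01. Neighbours of both genes thus lay past 2-fold in either direction. Next to dec-1 (X, 7761232 to 7767255), CR43615 was at 2.71 and Ir7c had 6.28 FPKM in females and 1.57 FPKM in males, and farther out CG10920 and CG1409 were at −5.46 and −4.41. Near ndl (3L, 6587038 to 6596466) the germline gap junction gene zpg had 163 FPKM in females and 4.89 FPKM in males (4.80). The other loci there were CG18769 at 0.86, jv at −1.59, CG8368 at −1.72, CG8398 at −2.71 and CG32396 at −5.64. Vml (X, 2169983 to 2171814) had no tested neighbour past 2-fold toward males, with CG2918 at 0.34, CG2865 at 1.27, phl at 1.88, CG3071 at 2.26 and CG2924 at 2.45. The loci not tested were CR43465, CR43859, CR34052, Ir7b and Ir7d.

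**Figure D5:**
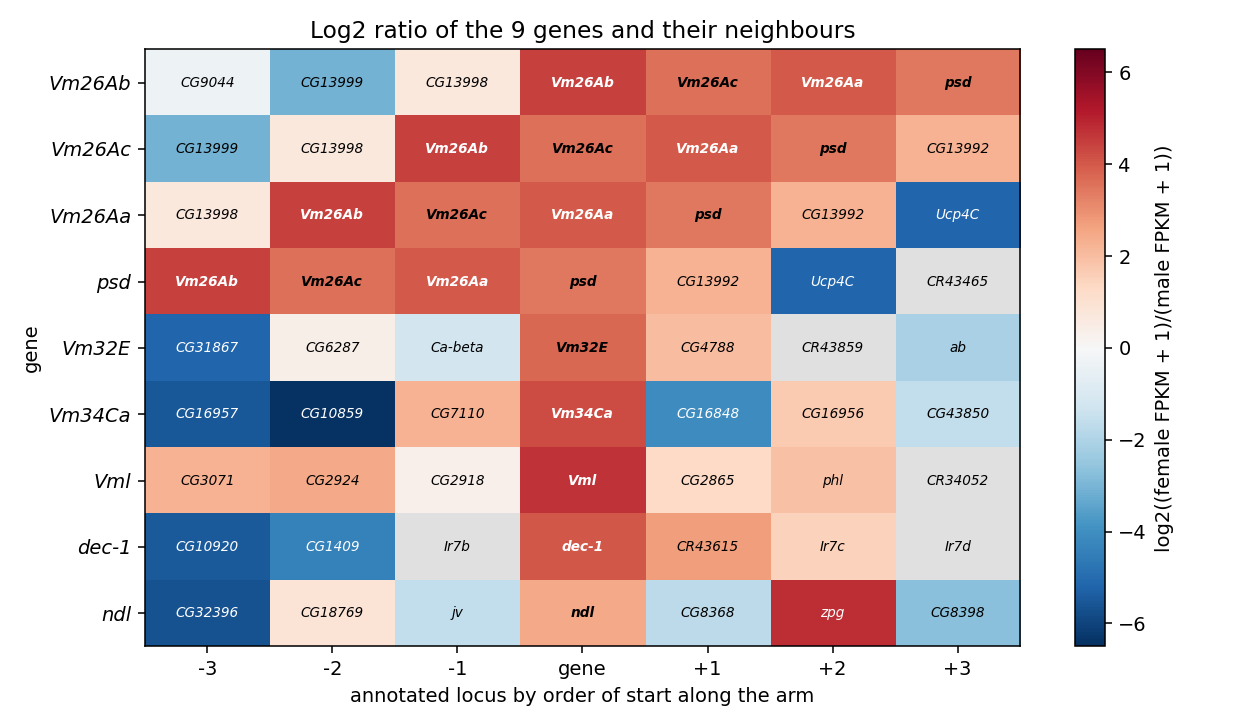
Log2 ratio, coloured from blue (higher in males) to red (higher in females), for each of the 9 genes (centre column, bold) and the 3 annotated loci on each side; grey cells were below 1 FPKM in both libraries. The 26A cluster appears as a block of 4 red cells between CG13998 and CG13992, and CG10859 beside Vm34Ca is the lowest at −6.41.

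Several of the 9 genes overlap another annotated locus, and the use of strand in counting is not given in the sources used here. Vm32E (2L, 11171229 to 11171665) lies within the span of Ca-beta on the same strand and shares 0 nt of exon with it. Vm34Ca shares 12 nt of exon with CG7110 on the opposite strand, and ndl shares 3 nt with CG18769, also on the opposite strand. The largest overlap is that of dec-1 with the antisense noncoding RNA gene CR43615, with 323 nt of shared exon. CR43615 had 25.3 FPKM in females and 3.00 FPKM in males, a log2 ratio of 2.71, and fragments from the shared stretch cannot be assigned to either gene with certainty.

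Genes with a pattern most like that of the 9 were sought by the distance, in units of log2(FPKM + 1) over the 2 libraries, from the point of their medians (120 FPKM in females and 6.43 FPKM in males). Among 15878 other annotated genes the 10 nearest were CycE, gwl, CG14516, Spargel, HipHop, brat, CG13299, Cks30A, wech and vas, at distances from 0.16 to 0.30. CycE had 134 FPKM in females and 6.25 FPKM in males, and vas had 101 FPKM in females and 5.55 FPKM in males. Gene by gene, the nearest were HmgD to Vm26Aa, CG42704 to Vm26Ab, bam to Vm26Ac, brat to Vm32E and the chorion gene Cp36 to Vm34Ca. For the others they were eloF to Vml, Orc6 to psd, CycE to dec-1 and CG6508 to ndl. With 2 libraries such likeness rests on 2 values per gene.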

How the data were processed

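The authors deposited FPKM values per locus for 1 female and 1 male library, and the annotation of transcript models. The submitters' processing notes name TopHat2 2.0.8, Cufflinks 2.0.2 and the build BDGP5, without roles. Coordinates, counted from 1, were taken from the deposited annotation, among other values. FPKM were used as deposited, without rescaling. Log2 ratios were taken after adding a pseudocount of 1 FPKM to each value, so changes of low genes come out too small. A locus entered the comparison when either library reached 1 FPKM, and calls were made at 2-fold over the whole table. Calling was tested on simulated data with large changes and little noise, which checks the code and not the error of these libraries.

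An FPKM table holds no counts. In low female values a common step of 0.0128 FPKM times kilobase per fragment was found. Of 383 checked values, 216 (56.4%, Wilson 95% interval 51.4 to 61.3%) were within 0.15 of whole steps, against 30% by chance. The step puts the lowest gene by fragments, Vm26Ac, near 880 fragments in females. In the male library no such step was found (31.7%) with lengths reduced by 100 nt, a reduction fitted on the female values. Other reductions were not tried for the male library, so the counting error of low male values is unknown.

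The 9 genes are named, with the 10 most alike genes and the nearest one to each, the 3 neighbours on each side, every gene of the patterning list and the extremes of other lists; others were named after their values were seen. Genes and lists were chosen with earlier results of these data known. Symbols came from the deposited annotation. Promoter and protein sequences were not analysed here. Python 3.11.15, numpy 2.4.6, pandas 2.3.3, scipy 1.17.1 and matplotlib 3.10.9 were used.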

Additional observations from a re-analysis of the deposited data

How the results depend on the processing

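All 79 log2 ratios of the 9 genes taken under 9 alternatives were positive, from 0.74 to 5.10. Alternatives that change only which loci are tested, by filter or annotation, leave each ratio as it was and so add no support. Only the pseudocounts and the scalings change the ratios. The lowest ratio was that of ndl with a pseudocount of 10, the only one below 1, which left 8 genes past 2-fold. Their median was 4.19 with a pseudocount of 0.1 and 2.97 with 10, 4.01 over the 7 genes with 1 FPKM in both libraries, 4.44 with the same sum of FPKM, 3.08 with the same median of ribosomal protein genes and 3.53 with the same median of loci at 1 FPKM in both. These 3 scalings shift log2 ratios by about 0.51, −0.97 and −0.49. The median male percentage was 3.80% with the same sum and 10.6% under ribosomal scaling.

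Loci 2-fold higher in females and in males numbered 3034 and 5743. They became 1786 and 2936 with a pseudocount of 10, 1282 and 8839 with ribosomal protein genes set equal, and 1072 and 2866 at 4-fold. They were 2760 and 2382 with 1 FPKM in both libraries, 2001 and 7251 with equal medians, and 4260 and 4209 with the same sum. The share of calls higher in females was 34.6%, against 53.7% with 1 FPKM in both libraries and 50.3%, 12.7% and 21.6% under the 3 scalings. The median of tested loci reversed to 0.17 with 1 FPKM in both. The follicle cell regulator median reversed to −0.81 and −0.36 under ribosomal and median scaling, and that of ribosomal protein genes to −0.036 by construction. Under ribosomal and median scaling the median of all tested loci was −1.29 and −0.98. No paired analysis was possible because there is 1 library per sex. The cause of these shifts was not tested beyond what each alternative sets by construction.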
